A study of Rattus norvegicus with 12 samples.

Results

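Cholesterol in the brain is made locally, because the lipoproteins that carry it in blood do not cross into the tissue. Synthesis runs from acetyl-CoA through mevalonate and the isoprenoid farnesyl diphosphate to squalene, lanosterol and cholesterol, and most of its enzymes are transcribed by SREBP-2. This factor is released from the endoplasmic reticulum when membrane cholesterol is low, while the INSIG proteins hold it back when cholesterol is high. Neurons and astrocytes both express the pathway, and neurons also take up cholesterol in lipoproteins that astrocytes secrete.

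The genes described here are the 8 rat genes Hmgcs1, Idi1, Fdps, Fdft1, Sqle, Lss, Dhcr7 and Insig1, out of 15154 genes that could be named on the array. The first 7 encode enzymes of cholesterol synthesis and Insig1 encodes a retention protein of the pathway's regulator. They had been grouped as synthesis and uptake genes, but none of the 8 encodes an uptake receptor, so lipoprotein receptors are given separately further on. Members were found through the RefSeq transcript accession of each probe, and of several probes for a gene the one with the highest mean log2 intensity was used. Only Fdps had more than 1 probe. All 8 probes were well above background on all 12 arrays.

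The RNA came from primary hippocampal neurons of embryonic day 18 Wistar rat embryos, kept in culture for 14 to 15 days, and per the methods these cultures also hold some glial cells. Oxygen and glucose deprivation (OGD), an in vitro model of ischemia, was given for 2 h in an anaerobic chamber in saline in which sucrose replaced glucose. Control cultures (Ctrl) spent the same time in saline with 25 mM glucose in an ordinary incubator, and both were then returned to conditioned medium. RNA was collected after 7 h or 24 h of this recovery, and the methods name 3 independent cultures as biological replicates. Each of the 4 groups (Ctrl 7 h, OGD 7 h, Ctrl 24 h and OGD 24 h) had 3 one-colour whole-genome arrays. The comparison asks how OGD changed expression before and after the onset of the delayed cell death for which the 2 times had been chosen.

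Levels below are log2 intensities minus the median of the same array, and a level of 1 probe is never set against that of another. Each pair of Ctrl and OGD arrays with matching time and culture number shared a slide, so slide and treatment can be separated. Culture numbers are the replicate numbers of the labels, and the sources do not say whether same-numbered arrays share a culture. At 7 h the 2 arrays of the slides of cultures 1 and 2 were scanned 211 min apart. At 24 h those of culture 1 were scanned 177 min apart, and the remaining slides had no such gap. Where there was a gap, treatment and scan time cannot be told apart. The 7 h slides and the 24 h slides were scanned on different days, and time, slide and scan day cannot be told apart. Median array intensities lay between 234 and 660, except for OGD 24 h culture 1 at 131, the lowest of the 12. That array shared its slide with Ctrl 24 h culture 1, whose level was the highest of its group for all 8 genes, and the results are therefore given with and without this slide. Between 78.3% and 87.1% of spots per array were well above background. In RNA from whole cultures, fewer cells of a type and less RNA per cell cannot be told apart.

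RefSeq promoter sequences (build GRCr8) could be matched for 6 of the 8 genes, namely Hmgcs1, Idi1, Fdps, Lss, Dhcr7 and Insig1. They are shown because SREBP-2 acts on sterol genes together with NF-Y, which binds the CCAAT box, so members that move together can be set beside what their promoters share. The 250 bases before each start were searched on both strands. CCAAT was present in 5 of these 6 promoters, all but Dhcr7, and in 34.0% of the 33469 promoters of the table. GGGCGG, the GC box bound by Sp1, was also present in 5 of 6, all but Idi1, against 30.5% of all promoters. The classical sterol element TCACNCCAC was in none of the 6 and in 0.974% of all. The variant TCACACGAG was in Fdps alone, against 0.0986% of all promoters. No match of one of these motifs overlapped a match of another. Each stretch below runs 5′ to 3′ in the direction of the gene, with capitals marking CCAAT, its reverse complement ATTGG, or TCACACGAG.
Hmgcs1, chr2:53382101-53382190, plus strand: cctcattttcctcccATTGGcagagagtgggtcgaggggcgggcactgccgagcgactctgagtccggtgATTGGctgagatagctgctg
Idi1, chr17:66547540-66547605, minus strand: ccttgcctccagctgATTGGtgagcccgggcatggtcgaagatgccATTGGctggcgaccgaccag
Fdps, chr2:176804882-176804961, minus strand: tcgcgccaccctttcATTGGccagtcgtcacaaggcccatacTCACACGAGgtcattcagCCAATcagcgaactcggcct
Lss, chr20:12118293-12118327, minus strand: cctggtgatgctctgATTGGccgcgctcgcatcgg
Insig1, chr4:8057943-8057977, minus strand: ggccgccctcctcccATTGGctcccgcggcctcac
The Hmgcs1, Idi1 and Fdps promoters each held 2 CCAAT boxes. In Fdps the sterol element, 103 to 95 bases before the start, lay between them. A match describes these letters only and shows no binding.

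At 24 h after OGD, 7 of the 8 genes were lower than in Ctrl, by 1.77-fold (Lss) to 2.45-fold (Dhcr7) in 6 of them and by a measured 1.49-fold in Hmgcs1, a lower limit because 1 Ctrl spot was saturated, at an unadjusted p under 0.05 from limma, a linear model with moderated variances fitted to all probes; genes below this threshold are said to pass. Fdft1 was the exception, with a difference of -0.03 on the log2 scale. The median difference of the 8 was -0.96, against 0.01 over all 30367 probes. Over all probes 6.19% were lower at this threshold and 7.51% higher, and no member was higher. With at least a 2-fold change required beside the limma p, Sqle, Idi1, Dhcr7 and Insig1 passed, 4 of 8 against 1.96% of all probes. By the methods' t-test 0 of the 8 genes had a p under 0.05, against 1.92% of all probes lower by that test. No member passed Benjamini-Hochberg adjustment over all probes: for the 7 genes the adjusted p lay between 0.292 and 0.347. The adjustment left 0 of 30367 probes at this time, where 4160 had an unadjusted p under 0.05 and the methods' t-test gave 1923.

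Most of this difference came from 1 of the 3 slides. On the slide of culture 1 the median OGD minus Ctrl difference of the 8 genes was -2.21 on the log2 scale, on that of culture 2 it was -0.58, and on that of culture 3 -0.08. All 8 genes were lower after OGD on the first and on the second slide, and 6 of 8 on the third. The medians of all probes on these slides were 0.09, -0.03 and 0.12. Without both arrays of the culture 1 slide, 0 of the 8 genes passed, where 2.28% of all probes passed as lower. The differences then lay between -0.49 (Lss) and 0.15 (Fdft1) with a median of -0.36. Leaving out only Ctrl 24 h culture 1 also ended all 7 calls, against 2.49% of all probes passing as lower. Leaving out only OGD 24 h culture 1 left 2, Lss and Dhcr7, against 5.77% of all probes. With slide as a block, 4 of the 8 genes passed, namely Sqle, Fdps, Lss and Insig1, against 4.39% of all probes passing as lower in that fit, with adjusted p of 0.374 or more. The low intensity of OGD 24 h culture 1 moved with the result, and its part in it was not tested.

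**Figure D1:**
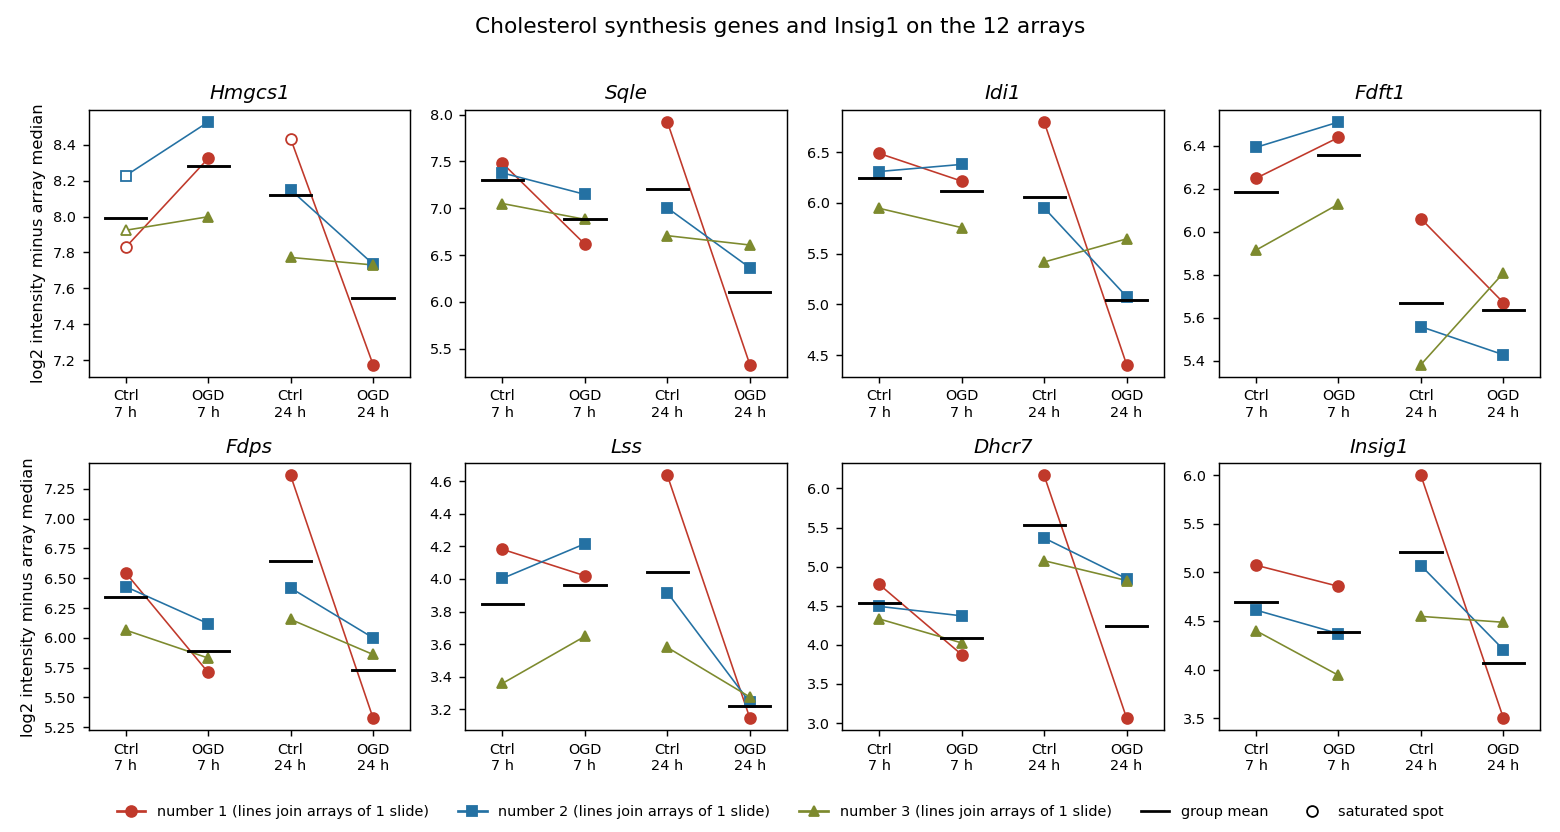
Levels (log2 intensity minus array median, y axis) of the 8 genes in the 4 groups, 1 panel a gene with its own scale; each point is 1 array, lines join the Ctrl and OGD array of 1 slide, black bars are group means and open symbols saturated spots. At 24 h the culture 1 slide has the steepest line for all genes but Fdft1, where the culture 3 line runs upward by 0.43.

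Hmgcs1 makes HMG-CoA, an early intermediate of the pathway. At 24 h its level was 8.43, 8.15 and 7.77 in Ctrl cultures 1 to 3 and 7.18, 7.74 and 7.73 in the OGD cultures. The groups did not overlap, but on the culture 3 slide the difference was only -0.04. The fitted difference was -0.57 ± 0.24 (SE, n = 3 per group, adjusted p = 0.347). The spot was saturated on Ctrl culture 1, so that level is a lower limit.

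Idi1 interconverts the isoprenoid building blocks isopentenyl and dimethylallyl diphosphate. Its 24 h levels were 6.80, 5.95 and 5.42 in Ctrl and 4.41, 5.08 and 5.65 in OGD. The groups overlapped, since OGD culture 3 was above Ctrl culture 3. The difference was -1.01 ± 0.39 (adjusted p = 0.315), a 2.02-fold lower mean.

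Fdps condenses these units to farnesyl diphosphate, from which the sterol, ubiquinone, dolichol and prenylation branches depart. Ctrl levels at 24 h were 7.36, 6.42 and 6.15, and OGD levels 5.33, 6.0 and 5.86. Each OGD array was below each Ctrl array, and the difference was -0.92 ± 0.31 (adjusted p = 0.294). The second Fdps probe gave -0.81 ± 0.30 (adjusted p = 0.311) at 24 h, so both probes of this gene pointed the same way.

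Fdft1 joins farnesyl diphosphate into squalene and is the first enzyme committed to sterols. Its Ctrl levels at 24 h were 6.06, 5.56 and 5.38, and its OGD levels 5.67, 5.43 and 5.81. These groups overlapped, and the 95% confidence interval of the difference ran from -0.53 to 0.47. On the slides the differences were -0.39, -0.13 and 0.43.

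Sqle, squalene epoxidase, catalyses the first oxygen-dependent step of the sterol branch. Its 24 h levels were 7.92, 7.00 and 6.71 in Ctrl against 5.33, 6.36 and 6.61 in OGD. The groups did not overlap, and the difference on the culture 3 slide was -0.10. The difference was -1.11 ± 0.38 (adjusted p = 0.292), a 2.16-fold lower mean.

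Lss closes the ring to lanosterol. Ctrl levels were 4.63, 3.92 and 3.58, while the OGD arrays gave 3.15, 3.24 and 3.28, the tightest OGD group of the 8 genes with an SD of 0.07. All OGD arrays were below all Ctrl arrays. The difference was -0.82 ± 0.30 (adjusted p = 0.309), and Lss also had the most negative value of the 8, -0.49, once the culture 1 slide was left out.

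Dhcr7 reduces 7-dehydrocholesterol to cholesterol at the end of the pathway. Its Ctrl levels at 24 h were 6.17, 5.37 and 5.08 and its OGD levels 3.06, 4.85 and 4.82. The groups did not overlap, and OGD culture 1 lay well below the other OGD arrays. The difference of -1.29 ± 0.45 (adjusted p = 0.298) was the most negative of the 8, and 1.08% of all probes had a lower one. Without the culture 1 slide it was -0.39 and did not pass.

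Insig1, itself transcribed by SREBP-2, binds the SREBP escort protein Scap and holds it in the endoplasmic reticulum when sterols are abundant. Levels of 5.996, 5.07 and 4.55 in Ctrl stood against 3.50, 4.21 and 4.49 in OGD. The groups did not overlap, although on the culture 3 slide the difference was only -0.06. The difference was -1.14 ± 0.40 (adjusted p = 0.298).

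Counted over the group, every OGD array was below every Ctrl array for 6 of the 8 genes at 24 h, all but Idi1 and Fdft1, against 7.02% of all probes. Within slides, OGD was below Ctrl on each of the 3 for the same 6 genes, against 12.1% of all probes.

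At 7 h after OGD, none of the 8 genes passed in either direction, while over all probes 7.03% passed as lower and 4.79% as higher. The median difference was -0.22, and -0.31 without Hmgcs1, against -0.06 over all probes. Leaving out Hmgcs1, whose Ctrl spots were saturated, the differences lay between -0.46 ± 0.31 (Fdps) and 0.17 ± 0.23 (Fdft1). Adjusted limma p was 0.573 or more for all 8, and 0 of 30367 probes passed adjustment at 7 h, against 3590 with an unadjusted p under 0.05 and 4698 by the methods' t-test. The methods' t-test left 1 probe after adjustment, which was no member.

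Among the genes with a negative value at 7 h, Fdps had levels of 6.55, 6.43 and 6.06 in Ctrl and 5.71, 6.12 and 5.83 in OGD, with OGD culture 2 above Ctrl culture 3. For Sqle the Ctrl levels were 7.48, 7.38 and 7.05 and the OGD levels 6.62, 7.15 and 6.88. Dhcr7 gave 4.77, 4.49 and 4.33 in Ctrl and 3.87, 4.37 and 4.02 in OGD. Within slides the differences were -0.84, -0.31 and -0.23 for Fdps and -0.87, -0.23 and -0.17 for Sqle. For Dhcr7 they were -0.90, -0.12 and -0.31. All 3 genes were most negative on the culture 1 slide, which held the lowest (OGD, 234) and highest (Ctrl, 660) median intensity at 7 h. The part of intensity in these differences was not tested. In each of these 3 genes OGD was below Ctrl on every slide while the groups overlapped. Insig1, with 5.07, 4.61 and 4.40 against 4.86, 4.37 and 3.94, was likewise lower on every slide, with a fitted difference of -0.31 ± 0.40. That made 4 of 8 genes, against 23.6% of all probes, while the groups separated fully downward in 0 of 8, against 15.5%. Idi1, at -0.13 ± 0.39, was lower on 2 of the 3 slides.

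Fdft1 was higher after OGD on all 3 slides at 7 h, by 0.19, 0.12 and 0.21, but its groups overlapped, with Ctrl levels of 6.25, 6.39 and 5.92 and OGD levels of 6.44, 6.51 and 6.13. Lss was higher on 2 of the 3 slides, and its fitted difference of 0.11 ± 0.30 was within its error. Both signs depended on the background correction, since normexp gave -0.41 for Fdft1 and -0.40 for Lss. Spike-in scaling gave -0.60 and -0.67, which relative to the median of all probes under that scaling was 0.23 and 0.17. The Hmgcs1 spot was saturated on all 3 Ctrl 7 h arrays and on none of the OGD 7 h arrays. Its Ctrl levels of 7.83, 8.23 and 7.92 are therefore lower limits, the OGD levels were 8.32, 8.53 and 8.0, and neither a fold nor a direction is given at 7 h.

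With the culture 1 slide of 24 h left out of the fit, the estimate of the spread changed, and Fdps and Dhcr7 then passed as lower at 7 h (unadjusted) with the same differences, while the share of all probes passing as lower rose to 11.6%. The 7 h calls thus depend on the estimate of the spread, and a p above the threshold does not show that these genes did not change.

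**Figure D2:**
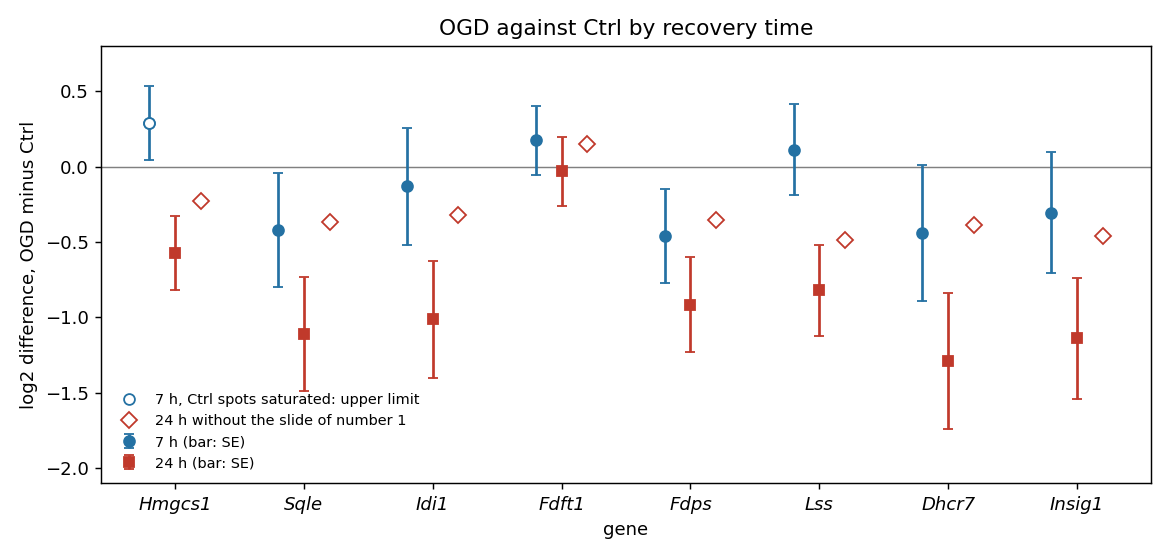
Log2 difference of OGD minus Ctrl (y axis) for the 8 genes; circles are 7 h, squares 24 h, both with SE bars from the limma fit, and diamonds 24 h without the culture 1 slide. The squares of 7 genes lie between -0.57 and -1.29 and Fdft1 at -0.03, while the diamonds lie between -0.49 and 0.15.

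The difference between the OGD responses at 24 h and 7 h was tested directly in the same fit. Its measured value was negative for all 8 genes, with a median of -0.84, and 2 of 8 passed at an unadjusted p under 0.05, against 1.4% of all probes. These were Hmgcs1 (-0.86 ± 0.35) and Lss (-0.93 ± 0.42), and the adjusted p was 1.0 for both. For Hmgcs1 the value rests on the saturated Ctrl 7 h spots, so the size, direction and call of this difference are not settled. Among the 7 genes beside it 1 passed, with a median of -0.83. Without the culture 1 slide of 24 h neither Lss nor Hmgcs1 passed, and the difference turned to 0.0521 for Sqle, 0.104 for Fdps and 0.0555 for Dhcr7. In the full fit the other 6 genes had differences between -0.21 (Fdft1) and -0.88 (Idi1) and did not pass, so a distinct response at the 2 times was not shown for them. In the Ctrl arrays themselves, Dhcr7 had a mean level of 4.53 at 7 h and 5.54 at 24 h and Fdft1 6.19 and 5.67, which is a description only because the times were on different slides.

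The other enzymes of the pathway gave a similar picture at 24 h. Of 11 further synthesis enzymes with a named probe, 7 passed as lower (limma p under 0.05, unadjusted) and none as higher, with a median of -0.76. Over all probes 6.19% passed as lower and 7.51% as higher. The 7 were Acat2 (acetoacetyl-CoA thiolase, -1.13), Mvk (-0.77) and Mvd (-1.05) of the mevalonate steps, and Cyp51 (-0.75), Nsdhl (-1.10), Hsd17b7 (-1.13) and Sc5d (-0.76) of the steps after lanosterol. Pmvk, Tm7sf2, Msmo1 and Ebp did not pass, with values between -0.54 and -0.41. None passed adjustment. Their slide medians were -1.85, -0.54 and 0.08, and on the culture 3 slide only 2 of the 11 were lower, Mvk and Mvd. Without the culture 1 slide 1 of the 11 passed, Mvk (-0.42), against 2.28% of all probes passing as lower. With slide as a block 3 of the 11 passed as lower at 24 h, against 4.39% of all probes.

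At 7 h, none of these 11 passed as lower, but without the culture 1 slide of 24 h Mvk (-0.41) and Nsdhl (-0.83) did. Over all probes 7.03% passed as lower at 7 h, and 11.6% without that slide. Msmo1 had a measured value of 0.60 that passed unadjusted, but its spot was saturated on all 3 Ctrl 7 h arrays, so no direction is drawn from it. Its difference between the times, -1.11, which also passed unadjusted, carries the same limit.

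**Figure D3:**
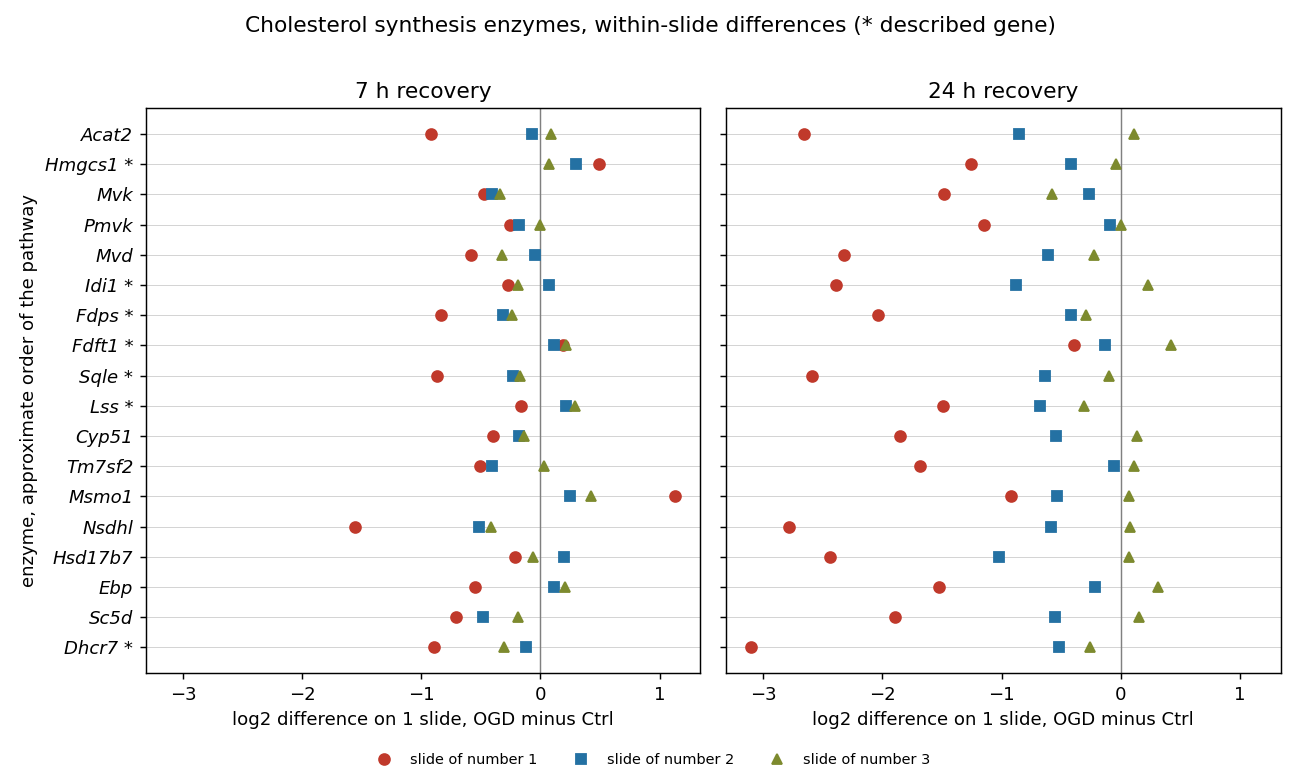
Within-slide log2 difference of OGD minus Ctrl (x axis) at 7 h and 24 h for 18 synthesis enzymes in approximate pathway order (y axis); each symbol is 1 slide and asterisks mark the 7 enzymes described in detail. At 24 h the culture 1 slide reaches -3.10 and all 18 enzymes are lower on the culture 1 and culture 2 slides, whereas the culture 3 slide lies between -0.57 (Mvk) and 0.43 (Fdft1).

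Of 8 regulators of SREBP processing, 7 had a negative value at 24 h, and only Srebf2, which encodes SREBP-2, passed as lower (-0.95, adjusted p = 0.312). This 1 of 8 stood against 6.19% of all probes passing as lower, and the 1 of 8 at 7 h, Insig2, against 7.03%. The escort protein Scap was at -0.37 and the site-1 protease gene Mbtps1 at 0.06, and neither passed. Insig2, the second INSIG gene, was at -1.04 at 7 h (adjusted p = 0.270) and at -0.61 at 24 h (adjusted p = 0.387). Insig1 thus passed unadjusted at 24 h and Insig2 at 7 h, and neither gene's difference between the times passed. Without the culture 1 slide Srebf2 did not pass at 24 h.

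Uptake and intracellular transport genes showed no common change. Of 10 with a named probe, 6 had a negative and 4 a positive value at 24 h. The only one to pass was the cholesterol carrier gene Stard4, as lower (-1.42, adjusted p = 0.321). That was 1 of 10, against 6.19% of all probes passing as lower. The lipoprotein receptor genes did not pass at 24 h, with Vldlr at -0.90, Lrp1 at -0.22 and Scarb1 at -0.35. The lysosomal export genes Npc1 and Npc2 were at 0.20 and 0.48. Without the culture 1 slide none of the 10 passed.

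Among 9 genes of export, storage and turnover, Abcg4 (-0.93), a sterol exporter, and Cyp27a1 (-1.15), a sterol hydroxylase, passed as lower at 24 h, and Cyp27a1 also at 7 h (-1.69, adjusted p = 0.275). Over all probes 6.19% passed as lower at 24 h and 7.03% at 7 h. Of the 9 genes, 4 had a negative and 5 a positive value at 24 h. None of 7 genes of the other mevalonate branches, the isoprenoid branches beside the sterol branch, passed at 24 h, where 6.19% of all probes passed as lower. Of these 7, 5 had a negative and 2 a positive value, with a median of -0.28. Their slide medians were -0.97, -0.14 and 0.13. Of 10 fatty acid synthesis genes linked to SREBP, 3 passed as lower at 24 h, against 6.19% of all probes. These were Fasn (-0.97), fatty acid synthase, Acss2 (-0.85), which makes acetyl-CoA, and the desaturase gene Fads1 (-0.63). None of these groups kept a call at 24 h without the culture 1 slide.

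**Figure D4:**
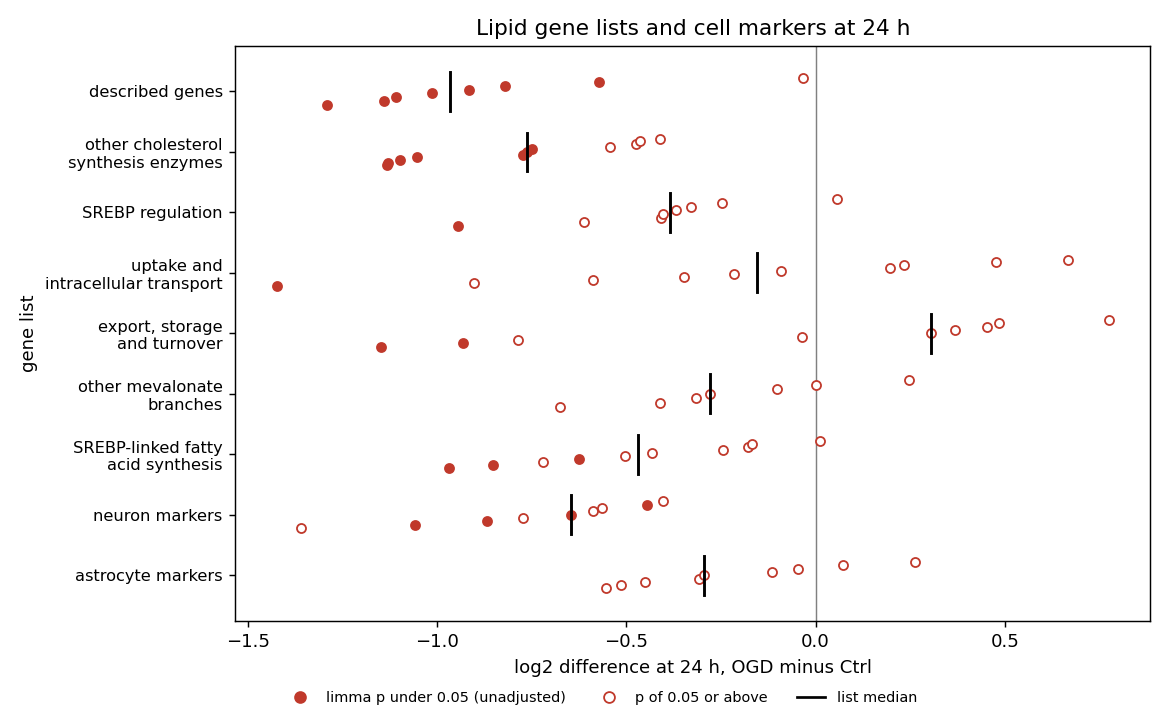
Log2 difference of OGD minus Ctrl at 24 h (x axis) for each gene of 9 lists (y axis); filled points had an unadjusted p under 0.05 and black bars are list medians. Medians are -0.96 for the described genes and -0.76 for the other synthesis enzymes, against -0.15 for uptake and transport and 0.31 for export, storage and turnover.

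The cultures expressed their labelled cell type: all 9 neuron markers with a named probe, among them Map2, Tubb3 and Snap25, were well above background on all 12 arrays, as were all 9 astrocyte markers, including Gfap and Aqp4. At 24 h all 9 neuron markers had negative values, from -1.36 to -0.40 with a median of -0.65. Of the 9, 4 passed as lower (Nefl, Camk2a, Eno2 and Map2), against 6.19% of all probes. Only Eno2 passed when the culture 1 slide was left out, against 2.28% of all probes passing as lower. The summed neuron marker intensity, relative to the array median, was 624 to 839 in Ctrl 24 h and 305 to 616 in OGD 24 h, with the Stmn2 spot saturated on 2 of these Ctrl and 1 of these OGD arrays. The slide medians of the neuron markers were -1.34, -0.36 and -0.05, ordered as those of the 8 cholesterol genes. Astrocyte markers gave 0 of 9 calls at 24 h with a median of -0.29, where 6.19% of all probes passed as lower and 7.51% as higher. Their slide medians were -0.95, 0.10 and 0.11, and 8 of the 9 were lower on the culture 1 slide. Their sums overlapped, 1029 to 1253 in Ctrl and 934 to 1331 in OGD. In these sums the Aldoc spot was saturated on 3 Ctrl and 2 OGD arrays, and the Slc1a3 and Aqp4 spots each on 1 OGD array. The part of the neuron or astrocyte markers in the cholesterol gene result was not tested.

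At 7 h the neuron marker sums overlapped, with 567 to 742 in Ctrl and 525 to 724 in OGD. Of 9 neuron markers 1 passed as lower (Eno2), against 7.03% of all probes. Leaving the culture 1 slide of 24 h out of the fit made this 5 of 9, namely Rbfox3, Snap25, Nefl, Nefm and Eno2, against 11.6% of all probes. Of the 9 markers, 6 had a negative 7 h value and 3 a positive one, namely Map2 (0.26), Camk2a (0.15) and Stmn2 (0.31). The Stmn2 spot was saturated on 2 of the Ctrl and 1 of the OGD arrays at 7 h. Astrocyte sums were 974 to 1111 in Ctrl and 1220 to 1545 in OGD, with Slc1a3 and Aldoc passing as higher, but both spots were saturated on all 3 Ctrl arrays. Markers of the remaining cell types had sums at 24 h of 18.6 to 23.0 in Ctrl and 21.4 to 31.1 in OGD for 8 microglia markers, 222 to 326 and 260 to 458 for 10 oligodendrocyte lineage markers, and 33.4 to 119 and 108 to 182 for 10 vascular cell and fibroblast markers. Higher values at 24 h passed for Cd68 of the microglia, Olig2 of the oligodendrocyte lineage, and Pdgfrb and Flt1 of the vascular list (Flt1 was well above background on 9 of 12 arrays), and no marker of these 3 lists passed as lower at 24 h. Over all probes 7.51% passed as higher and 6.19% as lower at 24 h. Positive values at 24 h were found for 7 of 8 microglia, 7 of 10 oligodendrocyte lineage and 6 of 10 vascular markers. At 7 h Sox10 (-0.96), Pecam1 (-0.91) and Cldn5 (-1.48) passed as lower and Cx3cr1 (1.02) as higher, all unadjusted. Over all probes 7.03% passed as lower and 4.79% as higher at 7 h. The oligodendrocyte lineage and vascular lists each had 6 negative and 4 positive values at 7 h, and the microglia list 5 and 3. Among the vascular markers Cdh5 (0.39) and Flt1 (0.36) were positive at 7 h. Pecam1 was well above background on 9 and Cldn5 on 6 of the 12 arrays.

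Over the 12 arrays the 8 genes varied together to different degrees. With the mean of the 8 gene-centred profiles, a gene's own Pearson correlation was lowest for Fdft1 at 0.46 and highest for Sqle at 0.96, and between pairs of members it ran from -0.20 to 0.93 with a median of 0.75. That mean was 0.95 in Ctrl 24 h culture 1 and -1.02 in OGD 24 h culture 1, while the other 10 arrays lay between -0.36 and 0.35, so these correlations share 1 slide as their widest contrast. Among 10879 named genes outside the set whose probe was well above background on every array, the 5 with the most similar profile were Ccsap (0.98), Abhd8 (0.97), Gad2 (0.97), Narf (0.97) and Acat2 (0.97). Of these, Acat2 acts at the start of sterol synthesis and Gad2 encodes a glutamate decarboxylase of inhibitory neurons.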

How the data were processed

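Intensities were deposited as Agilent Feature Extraction output, 1 file for each of 12 one-colour arrays with 44254 spots. The authors labelled RNA with Cy3 and produced background-subtracted processed signals. Their deposited value table holds log2 values after median centring with BRB-ArrayTools, and these differed from the levels computed here by 1 constant per array (within 0.01 for at least 99.9967% of probes). Whether their constants carry a scale was not needed here, since the table served only as an alternative.

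Here log2 of the processed intensity was taken, outlier-flagged spots were left out, spots of a probe averaged and the array median subtracted. Control spots were left out. limma 3.58.1 (R 4.3.3, lmFit and eBayes) was fitted to the 4 groups over 30367 probes, with Benjamini-Hochberg adjustment, after a check on simulated data. RefSeq accessions named 18004 probes and 15154 genes. Array coordinates belong to another build than the promoter table, so no probe position is given. The number of arrays limits the precision.

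The 8 genes and the lists were chosen with earlier results of these data known. All genes of the synthesis, SREBP and uptake lists could be named, and of other pathway lists those with an unadjusted p under 0.05, at most 4. Some genes of these lists are not reported here. The alternatives were centring, scaling, background correction, probe, block, weights, the methods' t-test and leaving out arrays. Culture numbers were not used as pairs, since the sources do not say what same-numbered arrays share and their deviations correlated between -0.05 and 0.17.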

Additional observations from a re-analysis of the deposited data

Results flagged for a closer look

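In the direct limma test, the response to OGD at 24 h minus that at 7 h measured -0.86 for Hmgcs1 and -0.93 for Lss (log2 scale). Both had an unadjusted p under 0.05 and an adjusted limma p of 1.0. For Hmgcs1 the slides gave measured values of 0.49, 0.30 and 0.08 after the shorter recovery and -1.26, -0.41 and -0.04 after the longer one. Its Ctrl spots were saturated at 7 h, so the first 3 values are upper limits with no settled direction, and the difference between the times is not settled either. Lss had slide differences of -0.16, 0.21 and 0.29 and, 24 h after OGD, of -1.49, -0.67 and -0.30. Its unadjusted limma p stayed under 0.05 in 3 of the 12 fits that left out 1 array. Without the culture 1 slide of 24 h it did not pass, so the Lss difference is not settled either.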

How the results depend on the processing

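Of the 29 alternatives, the 24 h difference of the 7 called genes stayed negative under each one that gave a value, while Fdft1 turned to 0.0809 with 75th percentile centring, 0.0649 with quantile normalization and 0.15 without the culture 1 slide of 24 h. The number of members lower at 24 h was 7 as reported, where 6.19% of all probes passed as lower. With the share of all probes in brackets, it was 1 with spike-in scaling (1.72%) and 0 with the methods' t-test (1.92%). It was 4 with limma on each time alone (2.50%) and 4 with slide as a fixed replicate block (4.39%). Without the culture 1 slide of 24 h it was 0 (2.28%), then with 2 at 7 h (11.6%). It was 0 to 7 when single arrays were left out. It was lower than 6 in this way only without Ctrl 24 h culture 1 (0) and without OGD 24 h culture 1 (2). With single arrays left out the median 24 h difference ranged from -1.25 (without Ctrl 24 h culture 3) to -0.60 (without Ctrl 24 h culture 1), and the Fdft1 difference from -0.17 to 0.17, turning to 0.17 without Ctrl 24 h culture 1 and 0.07 without OGD 24 h culture 2. Spike-in scaling, which rested on 1 usable spike-in probe, put the median of all probes at -1.01 at 24 h and -0.83 at 7 h, a move of -1.02 and -0.78, and 75th percentile centring put it at 0.12 at 24 h. Relative to the spike-in medians the members lay between -1.30 and -0.04 at 24 h. The median 24 h difference was -1.99 with spike-in scaling, -1.36 with normexp and -0.36 without the culture 1 slide.

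The median 7 h difference was -0.11 with 75th percentile centring, -0.997 with spike-in scaling and -0.78 with normexp correction, and ran from -0.37 to -0.0162 when single arrays were left out. At 7 h Hmgcs1 turned to -0.25 with quantile normalization, -0.49 with spike-in scaling and -0.35 with normexp, Fdft1 to -0.60 and -0.41 under spike-in scaling and normexp, and Lss to -0.67 and -0.40. The spike-in values follow the move of all probes, and relative to their median Hmgcs1, Fdft1 and Lss were at 0.35, 0.23 and 0.17. When single arrays were left out Lss ran from -0.13 to 0.28, with -0.13 without Ctrl 7 h culture 3 and -0.01 without OGD 7 h culture 2, and Idi1 from -0.28 to 0.0492 (without OGD 7 h culture 3). The count of members with a lower response at 24 h than at 7 h was 2, against 1.4% of all probes. It became 1 with quantile normalization (2.18% of all probes), with the fixed replicate block (1.4%) and with saturated spots left out (1.37%). It became 0 with spike-in scaling (0.0757%), with normexp (0.115%) and without the culture 1 slide of 24 h (2.72%) or of 7 h (0.698%). When single arrays were left out it lay between 0 and 3. Without the culture 1 slide of 24 h this difference turned to 0.0521 for Sqle, 0.104 for Fdps and 0.0555 for Dhcr7. The causes were not tested, except that fewer arrays enter where arrays are left out.

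As a random block the slide had a consensus correlation of 0.0176 and gave 7 calls at 24 h. On 3 of the 6 slides both arrays correlated best with their own number, so the numbers are a hint at most. With array quality weights 598 probes passed adjustment at 24 h, none of them a member. Normexp was run on the median spot signal, and this, the second Fdps probe, leaving out saturated spots and leaving out whole slides were chosen after seeing the data.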
